A study of Mus musculus with 6 samples.

Results

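The renin-angiotensin system was followed in mouse kidney through 8 genes: Ren1, Agt, Ace, Agtr1a, Agtr1b, Enpep, Mme and Mas1. They were taken by symbol from a table of read counts for 25031 genes, and each symbol matched 1 entry. The 6 libraries came from kidneys of young adult C57BL/6 males (7 to 8 weeks old, wild type), an inbred laboratory strain. All mice went through bilateral ischemia of 23 minutes followed by reperfusion, with core temperature kept at 37 °C, so both groups share this procedure. In the vehicle group (3 libraries) mice received saline, and in the CePPy group (3 libraries) they received (+)CePPy at 5 mg/kg by vein directly after the injury. (+)CePPy is a positively charged, cerium-doped polypyrrole nanoparticle. The labels give neither the time of collection nor whether each library stands for a separate animal, so the p-values rest on the variation among these libraries, part of which may be technical. Uninjured kidneys were not analysed here.

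Renin, the aspartic protease encoded by Ren1, is released by juxtaglomerular cells and cuts angiotensinogen, the product of Agt, to angiotensin I. Angiotensin-converting enzyme, encoded by Ace, trims this to angiotensin II, which constricts vessels and drives sodium retention through the type 1 receptors encoded in mice by Agtr1a and Agtr1b. Aminopeptidase A (Enpep) removes the first residue of angiotensin II, and neprilysin (Mme) forms angiotensin 1-7, whose receptor is encoded by Mas1. In the kidney, Ace, Enpep and Mme are known as enzymes of the proximal tubule brush border, and Agt is transcribed in the proximal tubule as well as in liver.

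Start-site windows from RefSeq (build GRCm38.p6, 250 bases before to 50 after an annotated start) were matched by symbol for 7 of the 8 members, 10 windows in all, and Agtr1a was not matched. The windows of Ren1 (chr1:133350424-133350723, plus strand), Agt (chr8:124569657-124569956, minus strand) and the upstream window of Ace (chr11:105967698-105967997, plus strand) are shown because these genes form the core chain of protease, substrate and converting enzyme, whose values are given below. Each reads 5′ to 3′ along the gene's strand, and capitals mark TATAAA, the TATA box letters, on either strand.
Ren1: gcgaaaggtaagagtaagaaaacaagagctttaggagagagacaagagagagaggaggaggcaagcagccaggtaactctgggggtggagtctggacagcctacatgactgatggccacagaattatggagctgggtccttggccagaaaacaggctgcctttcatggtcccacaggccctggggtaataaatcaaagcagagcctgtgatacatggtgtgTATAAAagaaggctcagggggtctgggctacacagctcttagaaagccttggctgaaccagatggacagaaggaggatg
Agt: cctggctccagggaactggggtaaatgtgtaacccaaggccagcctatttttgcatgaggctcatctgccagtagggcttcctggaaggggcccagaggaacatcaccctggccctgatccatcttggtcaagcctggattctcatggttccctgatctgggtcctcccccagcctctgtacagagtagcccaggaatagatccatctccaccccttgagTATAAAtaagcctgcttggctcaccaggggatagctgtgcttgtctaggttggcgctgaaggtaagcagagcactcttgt
Ace: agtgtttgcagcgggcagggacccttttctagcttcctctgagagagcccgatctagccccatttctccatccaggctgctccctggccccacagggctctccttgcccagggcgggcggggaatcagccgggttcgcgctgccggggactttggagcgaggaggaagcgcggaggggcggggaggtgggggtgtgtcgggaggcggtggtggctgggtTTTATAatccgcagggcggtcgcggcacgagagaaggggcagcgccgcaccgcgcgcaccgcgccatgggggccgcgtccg
The letters lie on the gene's strand with their first base at -29 in Ren1 and -30 in Agt, counted from the start site, and on the other strand at -31 in Ace. TATAAA on either strand occurred in 5 of the 10 member windows (Ren1, Agtr1b, Enpep, Agt and the upstream Ace window) and in 13.6% of all 32851 windows. The GC box letters GGGCGG, searched on both strands, occurred in the upstream Ace window and the 3 Mme windows, and in 35.7% of all windows. The antioxidant response element core, TGACNNNGC on either strand, was found in 0 of the 10 and in 12.4% of all windows. The other motifs searched on both strands were TTCNNNGAA (STAT), found in windows of Mme, Enpep and Agt and in 8.3% of all, and the cAMP response element TGACGTCA, the palindromic HNF1 site and the direct repeat with 1 spacer base bound by HNF4 and PPAR factors. These last were found in 0 of the 10 and in 1.79%, 0.00913% and 0.0396% of all windows. No match of one motif overlapped that of another in these windows, and a match describes letters only. Ace has a second window (chr11:105974939-105975238), and counts per gene do not separate transcripts from the 2 start sites.

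Library totals ran from 29762157 to 37415213 counts, so 1 count equalled 0.0266 to 0.0333 CPM (counts scaled to library size, here with TMM-scaled sizes). CePPy 1 and CePPy 2 stood apart in opposite ways: markers of the proximal tubule were farthest above vehicle in CePPy 1 and nearest to it in CePPy 2. Fits without each library in turn were made, and their values are given where a printed log2 fold change or list median changed sign or moved by over 1.5 times. The filter on low counts kept 7 of the 8 members, all but Agtr1b, and they were tested together with the other genes, 15416 in all. With the quasi-likelihood test of edgeR and Benjamini-Hochberg adjustment over all genes tested, 0 of the 7 members passed an adjusted p of 0.05, where 0.00649% of all genes (1 gene, lower) did and 0% did with higher values. Values above those of vehicle were seen in 4 of the 7 members and in 50.5% of all genes. An unadjusted p under 0.05 was reached by 3 members, Agt, Ace and Mme, all with higher values after CePPy. This was reached by 19% of all genes, and by 9.65% in the higher direction. In the same 3 members the groups did not overlap, where 26.3% of all genes were so separated and 12.3% with CePPy higher. DESeq2 called these 3 members higher, against 6.6% of genes called in either direction and 3.4% called higher. The median log2 fold change was 0.23 over the 7 members and 0.00296 over all genes tested; the members' median was 0.15 without CePPy 1 and 0.31 without CePPy 2.

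Levels were compared between genes per length, as CPM per kb of the union of a gene's exons in GENCODE M21. In vehicle kidneys Ren1 was highest, at 54.3 ± 8.87 CPM per kb (SD, n = 3, as for all levels), and Enpep followed at 30.7 ± 1.31. Agtr1a at 15.1 ± 1.33, Agt at 14.0 ± 1.32 and Ace at 13.7 ± 0.705 CPM per kb came next, with overlapping ranges, so these neighbours did not differ beyond their spread. Mme lay lower at 5.24 ± 0.822, Mas1 at 0.492 ± 0.104 and Agtr1b at 0.0450 ± 0.0419 CPM per kb. In CePPy kidneys the order was Ren1 (45.6 ± 11.5 CPM per kb), Enpep (36.0 ± 4.14), Agt (29.5 ± 8.36), Ace (22.4 ± 4.60), Agtr1a (14.3 ± 2.17), Mme (7.94 ± 0.915), Mas1 (0.390 ± 0.137) and Agtr1b (0.0227 ± 0.0199). There each of the first 3 overlapped the next in its range, and Ace lay above Agtr1a without overlap. Measured on the longest transcript in place of the exon union, the levels of Mme were 7.53 and 11.4 CPM per kb in vehicle and CePPy. Those of Agtr1a were 19.2 and 18.1 and those of Ace 14.7 and 24.1. The overlaps given above are for the exon union, and those of Agtr1a with Agt and Ace depended on the length used.

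**Figure D1:**
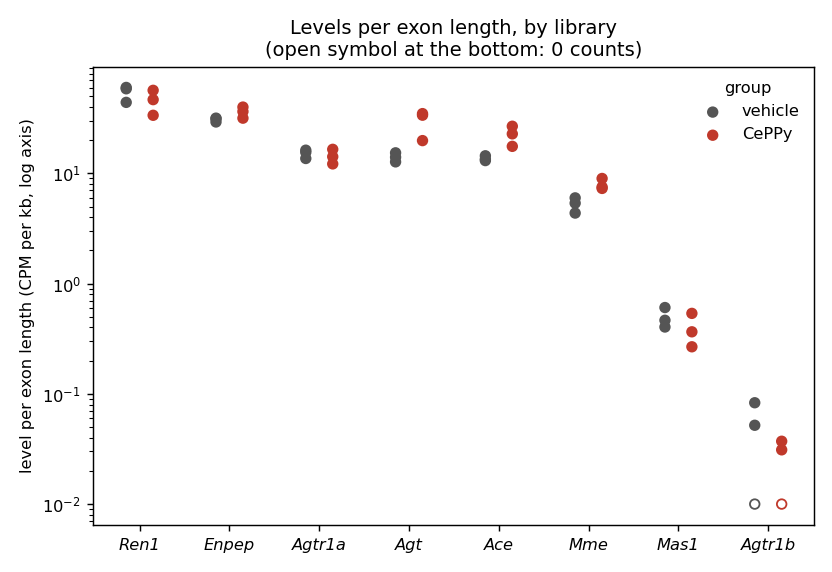
Level of each of the 8 genes in CPM per kb of exon (log axis), 1 point per library, with vehicle in grey and CePPy in red; open symbols at the bottom are libraries with 0 counts. Ren1 and Enpep lead in vehicle, Agt and Ace are at 29.5 and 22.4 CPM per kb in CePPy against 14.0 and 13.7 in vehicle, and Agtr1b is lowest in both groups.

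Ren1 (chromosome 1, 133350510 to 133360325, plus strand, GRCm38), the gene of the protease that starts the cascade, was not higher after CePPy. It measured 96.9, 73.0 and 99.7 CPM in vehicle 1, 2 and 3 and 93.9, 77.3 and 55.7 CPM in CePPy 1, 2 and 3. The groups overlapped: CePPy 1 and CePPy 2 lay within the vehicle range and CePPy 3 was the lowest library of all. This made a log2 fold change of -0.25 (SE 0.19, adjusted p = 0.519 by edgeR). Without CePPy 3 it was -0.07 and without CePPy 1 it was -0.43 (adjusted p = 0.868 and 0.272 by edgeR), and -0.38 without vehicle 2.

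Agt (chromosome 8, 124556534 to 124569706, minus strand), the substrate gene, had the largest log2 fold change of the 7 members tested. It measured 29.0, 24.0 and 26.5 CPM in the vehicle libraries and 63.7, 37.5 and 65.9 CPM in the CePPy libraries. Every CePPy library lay above every vehicle library, with CePPy 2 nearest to them. The log2 fold change was 1.07 (SE 0.20), a fold of 2.10, with an edgeR adjusted p of 0.097 over all genes and a DESeq2 adjusted p of 6.05e-05. Without CePPy 2 it was 1.29 and passed the test (adjusted p = 0.00654 by edgeR), where 2.98% of genes were called higher. Adipose tissue also makes Agt, and markers of fat were not level across the libraries. The 5 adipose markers summed to between 0.624 and 2.48 CPM in vehicle and between 1.10 and 7.13 CPM in CePPy, with Lep at 0 in every library. Of these 5, 2 were tested and both had higher values. CePPy 1, with an adipose sum of 1.10 CPM, inside the vehicle range, had an Agt level of 63.7 CPM. CePPy 3, with the highest adipose sum (7.13 CPM), had the highest Agt level, 65.9 CPM. The adipose sum of CePPy 2 also lay above the vehicle range, and its Agt level was the lowest of its group, 37.5 CPM. Whether adipose tissue accounts for any of the difference in Agt was not tested.

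**Figure D2:**
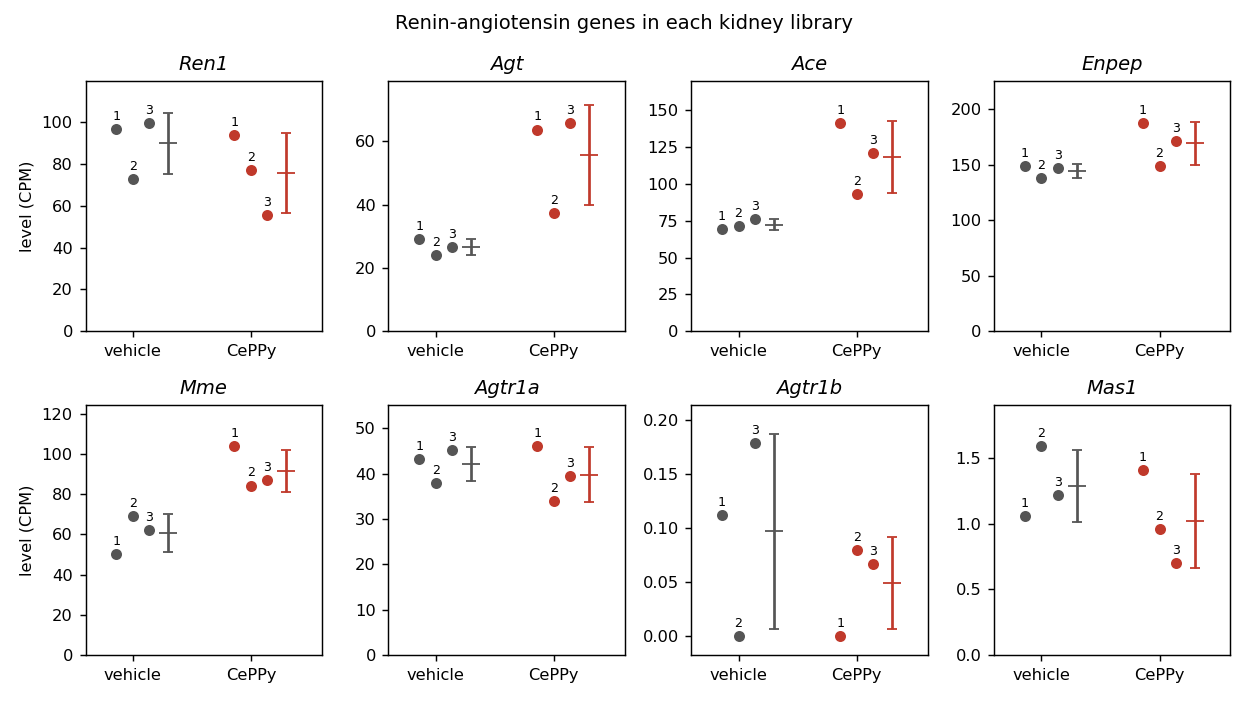
CPM of each gene in each library, numbered by replicate, with the mean and SD of each group beside the points; panels have their own vertical scales. The 3 CePPy libraries lie above the 3 vehicle libraries for Agt, Ace and Mme, and the groups overlap for Ren1, Enpep, Agtr1a, Agtr1b and Mas1.

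Ace (chromosome 11, 105967945 to 105989964, plus strand) gave the next-largest difference. It measured 69.1, 71.2 and 76.3 CPM in vehicle and 141, 93.0 and 121 CPM in CePPy. The vehicle libraries lay close together, with an SD of 5.16% of their mean against 20.6% in CePPy, and no CePPy library reached down to them. On the log2 scale the fold change was 0.71 (SE 0.15), a fold of 1.64, with an edgeR adjusted p of 0.102 and a DESeq2 adjusted p of 0.000548. It was 0.86 without CePPy 2, when it passed (adjusted p = 0.0127 by edgeR), and 0.57 without CePPy 1. The exons of Ace overlap the antisense gene Gm11651 by 295 bases, and with the handling of strand not given in these sources, reads of this stretch cannot be assigned to either gene.

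The angiotensin-degrading peptidases differed in size of change. Mme (chromosome 3, 63241537 to 63386030, plus strand) measured 50.4, 69.2 and 62.0 CPM in vehicle and 104, 84.3 and 86.9 CPM in CePPy. The groups did not overlap, and CePPy 2 lay close to CePPy 3. Its log2 fold change was 0.60 (SE 0.13), a fold of 1.51 (adjusted p = 0.11 by edgeR, DESeq2 adjusted p = 0.00318). Enpep (chromosome 3, 129269175 to 129332720, minus strand), aminopeptidase A, measured 149, 138 and 147 CPM in vehicle and 188, 149 and 171 CPM in CePPy. Here CePPy 2 lay just below vehicle 1, so the groups overlapped. Its log2 fold change was 0.23 (SE 0.10, adjusted p = 0.27 by edgeR), and 0.15 without CePPy 1 or 0.31 without CePPy 2.

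Receptor genes showed no separation of the groups. Agtr1a (chromosome 13, 30336441 to 30382867, plus strand), the main type 1 receptor gene of the mouse kidney, measured 43.2, 38.0 and 45.2 CPM in vehicle and 46.0, 33.95 and 39.5 CPM in CePPy. Its highest and its lowest library were both CePPy libraries. The log2 fold change was -0.08 (SE 0.12, adjusted p = 0.752 by edgeR), and it changed sign to 0.020 without CePPy 2. It was -0.20 without CePPy 1, -0.15 without vehicle 2 and -0.03 without vehicle 3. Agtr1b (chromosome 3, 20314473 to 20367177, minus strand), the second type 1 receptor gene, was covered by 4, 0 and 6 counts in vehicle and 0, 3 and 2 counts in CePPy, too few for a fold. Its transcript resembles that of Agtr1a, and the assignment of reads that map to both is not described in the labels. Agtr1b is known from the adrenal cortex, whose markers Cyp11b2 and Cyp21a1 were at 0 in every library; the 6 adrenal markers summed to between 4.58 and 5.99 CPM in vehicle and between 3.24 and 5.08 CPM in CePPy. Only Star passed the filter among them, with a lower value after CePPy, and it made up most of each sum. Cyp11a1 and Mc2r had at most 1 and 6 counts in a library, and Cyp11b1 had 4 counts, all in CePPy 3. Mas1 (chromosome 17, 12841079 to 12868143, minus strand) was covered by 38, 54 and 41 counts in vehicle and 50, 36 and 21 counts in CePPy. These equal 1.06, 1.59 and 1.22 CPM against 1.41, 0.957 and 0.700 CPM, with overlapping groups. Its log2 fold change of -0.33 had an SE of 0.37 (adjusted p = 0.662 by edgeR). It stayed below 0 with any library left out, at -0.63 without CePPy 1, -0.12 without CePPy 3 and -0.15 without vehicle 2.

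A wider list of 15 genes that process or receive angiotensins, or bind its receptors or prorenin, was set beside the members. Of these, 11 were tested, 4 with higher and 7 with lower values, and 0 passed with edgeR in either direction. The median log2 fold change was -0.04, and between -0.05 and -0.01 with a library left out. Mrgprd, Ctsg and Cma1 were at 0 in all libraries and Agtr2 had counts in 1 library. An unadjusted edgeR p under 0.05 was reached by 2 genes with higher values, Anpep and Agtrap, and by 1 with a lower value, Dpp3, against 9.65% and 9.37% of all genes. DESeq2 called Anpep higher, and so did edgeR without CePPy 2, against 3.4% and 2.98% of genes called higher.

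Anpep, the brush border aminopeptidase N that shortens angiotensin III, measured 72.7, 73.0 and 69.5 CPM in vehicle and 178, 102 and 181 CPM in CePPy. The log2 fold change was 1.10 (SE 0.20, adjusted p = 0.0884 by edgeR), with CePPy 2 the lowest of its group, and 1.32 without that library (adjusted p = 0.00153 by edgeR). Agtrap, which encodes a protein that binds the type 1 receptor, went from 77.4 ± 5.53 CPM to 93.0 ± 13.1 CPM (log2 difference 0.27, SE 0.11, adjusted p = 0.26 by edgeR), and the difference was 0.15 without CePPy 1. Dpp3, a cytosolic peptidase that degrades angiotensins, measured 72.7 ± 1.26 and 60.9 ± 4.56 CPM (-0.25, SE 0.08, adjusted p = 0.163 by edgeR), without overlap. Thop1, which encodes thimet oligopeptidase, a peptidase that cuts angiotensin I, measured 32.0 ± 2.77 and 26.6 ± 5.90 CPM (-0.26, SE 0.16, adjusted p = 0.41 by edgeR). That difference was -0.10 without CePPy 1 and -0.43 without CePPy 2. Atp6ap2, the (pro)renin receptor gene, had a log2 fold change of -0.06 (SE 0.10, adjusted p = 0.788 by edgeR), between -0.14 without vehicle 2 and -0.011 without CePPy 3.

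**Figure D3:**
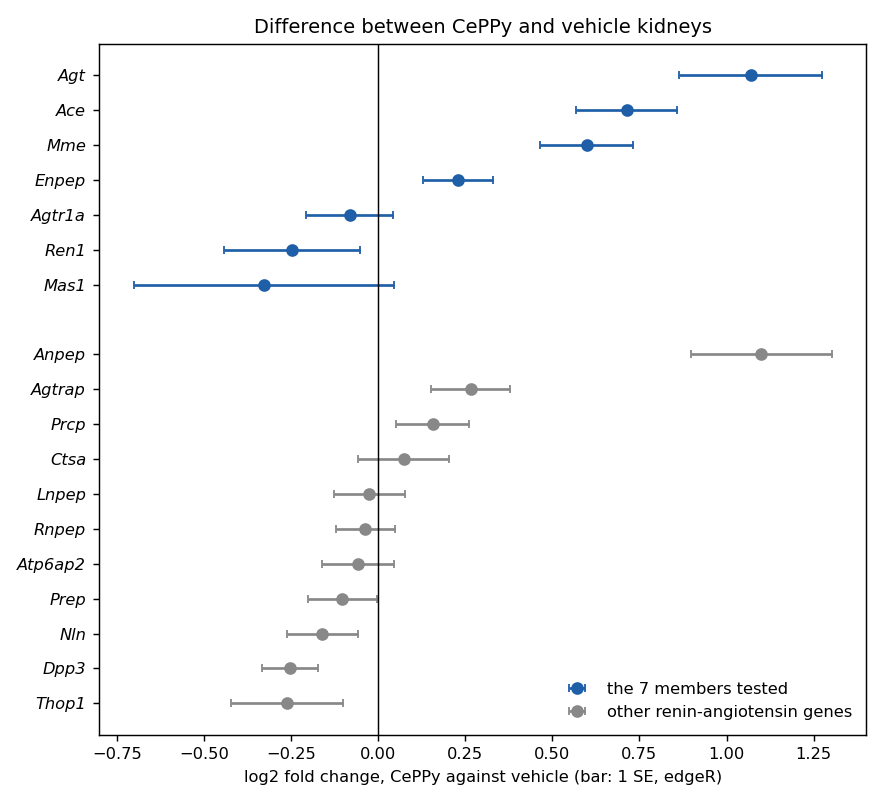
Log2 fold change of CePPy against vehicle with 1 SE from edgeR, for the 7 members tested (blue) and 11 other renin-angiotensin genes (grey). Agt, Ace and Mme lie between 0.60 and 1.07, with Anpep at 1.10 in the wider list, while Ren1, Agtr1a and Mas1 lie at -0.25, -0.08 and -0.33 with SEs of 0.19, 0.12 and 0.37.

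Ratios of levels per length put the members against each other within a library. Agt over Ren1, substrate against protease, was 0.262, 0.289 and 0.233 in vehicle and 0.595, 0.425 and 1.04 in CePPy. All 3 CePPy ratios lay above the vehicle ratios (two-sided exact permutation p = 0.1, the smallest that 3 against 3 libraries allow). Ace over Enpep was 0.445 ± 0.0283 in vehicle and 0.618 ± 0.0582 in CePPy, again without overlap (two-sided exact permutation p = 0.1). Mme over Ace was 0.384 ± 0.0563 and 0.360 ± 0.0477 and overlapped (two-sided exact permutation p = 0.6). The 3 ratios were computed after their levels were known, and none of the 3 tests could have passed a threshold of 0.05.

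Kallikrein and kinin genes share Ace and Mme with the angiotensin pathway, since both enzymes also break down bradykinin. Of 9 such genes, 8 were tested, 6 with higher and 2 with lower values (median log2 fold change 0.12, -0.04 without CePPy 1, 0.03 without vehicle 2 and 0.17 without CePPy 2), and edgeR called 0 in either direction. Kng2 and Xpnpep2 had an unadjusted edgeR p under 0.05 with higher values, against 9.65% of all genes in that direction. Both were called higher by DESeq2 and by edgeR without CePPy 2, against 3.4% and 2.98% of genes. Kng2, a kininogen gene, averaged 113 ± 13.7 CPM without and 171 ± 32.7 CPM with CePPy (log2 difference 0.60, SE 0.15, adjusted p = 0.121 by edgeR), and reads may be shared with its close copy Kng1. Xpnpep2, a membrane aminopeptidase that cleaves bradykinin, measured 1.87, 1.32 and 2.17 CPM in vehicle and 8.22, 3.59 and 5.57 CPM in CePPy. Its log2 fold change was 1.69 (SE 0.34, adjusted p = 0.102 by edgeR). Bdkrb2, the constitutive kinin receptor gene, measured 7.04, 6.44 and 6.42 CPM against 1.80, 6.30 and 3.77 CPM, a log2 difference of -0.74 (SE 0.39, adjusted p = 0.338 by edgeR). It was -0.39 without CePPy 1, the lowest library, and -1.26 without CePPy 2, the highest of its group. Cpn1, a carboxypeptidase that inactivates kinins, had a log2 fold change of -0.21 (SE 0.12, adjusted p = 0.357 by edgeR), and -0.09 without CePPy 3.

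Genes of the juxtaglomerular apparatus, which releases renin, were measured beside Ren1. All 13 were tested, 6 with higher and 7 with lower values, with a median log2 fold change of -0.03 that lay between -0.05 and 0.04 with a library left out. edgeR called 0 of them in either direction and DESeq2 called 0 as well. An unadjusted edgeR p under 0.05 was reached by 1, Adcy6, with a higher value, against 9.65% of all genes in that direction. Akr1b7, an aldo-keto reductase made together with renin, measured 2.87, 2.77 and 3.77 CPM in vehicle and 2.81, 2.95 and 2.07 CPM in CePPy. Its log2 fold change was -0.26 (SE 0.25, adjusted p = 0.591 by edgeR), and -0.12 without CePPy 3 or -0.11 without vehicle 3. Gja5, the connexin 40 gene that couples renin cells, measured 12.3 ± 0.840 and 10.4 ± 1.56 CPM (log2 difference -0.24, SE 0.14, adjusted p = 0.391 by edgeR), a difference of -0.13 without CePPy 1. Ptger4, a prostaglandin E2 receptor gene, had a log2 fold change of 0.11 (SE 0.12, adjusted p = 0.636 by edgeR) and Adcy6, an adenylyl cyclase gene, one of 0.26 (SE 0.09, adjusted p = 0.188 by edgeR).

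Markers of the proximal tubule, 1 of the sites known to carry Agt, Ace, Enpep and Mme, were set beside these members. In bulk kidney more cells of a type and more RNA per cell cannot be told apart. All 14 proximal tubule markers tested had higher values (median log2 fold change 0.59, and 0.35 without CePPy 1), with 0 called by edgeR. An unadjusted edgeR p under 0.05 was reached by 7, against 9.65% of all genes with higher values. DESeq2 called 4 of the markers and edgeR without CePPy 2 called 10, against 3.4% and 2.98% of genes called higher. The summed level of the proximal tubule markers was 5146 to 6009 CPM in vehicle and 5889 to 12139 CPM in CePPy. A list of 11 brush border peptidases and hydrolases, which includes Anpep and Xpnpep2, had higher values in all 10 genes tested (median 0.56, and 0.31 over 11 genes without CePPy 1). Of these, edgeR called 0, and 7 had an unadjusted p under 0.05. DESeq2 called 3 and edgeR without CePPy 2 called 4, against the same shares of all genes. In that list Mep1a, a meprin gene, had a log2 fold change of 0.67 (SE 0.18, adjusted p = 0.139 by edgeR), between those of Mme and Ace, and 0.42 without CePPy 1. Ggt1, a gamma-glutamyltransferase gene, had one of 0.10 (SE 0.14, adjusted p = 0.725 by edgeR), which turned to -0.05 without CePPy 1 and was 0.20 without CePPy 2, 0.17 without vehicle 3 and 0.05 without vehicle 2. Of 9 tubular injury markers, 8 had lower values (median -0.61, -0.32 without CePPy 1 and -0.93 without CePPy 2), with 0 called by edgeR. An unadjusted edgeR p under 0.05 was reached by 2, against 9.37% of all genes with lower values. DESeq2 called 2 and edgeR without CePPy 2 called 1, against 481 of 15049 and 344 of 15697 genes called lower. The sum of the injury markers was 31428 to 32201 CPM in vehicle and 17590 to 34014 CPM in CePPy. Their mean log2 level against vehicle was -1.40, -0.14 and -0.34 in CePPy 1, 2 and 3. In 6 of the 9 the groups did not overlap, all with CePPy lower, where 26.3% of all genes were separated in either direction.

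Library by library, the members did not all follow these lists. The mean log2 level of the proximal tubule markers against vehicle was 1.09, 0.12 and 0.74 in CePPy 1, 2 and 3. That of the brush border peptidases and hydrolases was 1.13, 0.29 and 0.62. Agt stood at 1.27, 0.50 and 1.31, Ace at 0.97, 0.37 and 0.74 and Enpep at 0.38, 0.04 and 0.24 on the same scale, each lowest in CePPy 2. Mme stood at 0.79, 0.49 and 0.53, also lowest in CePPy 2 but there close to CePPy 3. The tubule markers were nearest to vehicle in CePPy 2. Agtr1a stood at 0.13, -0.31 and -0.09, lowest in CePPy 2 too. Ren1 stood at 0.08, -0.20 and -0.68 and Mas1 at 0.14, -0.39 and -0.81, both lowest in CePPy 3. Whether the proximal tubule and injury markers account for any member's difference was not tested.

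**Figure D4:**
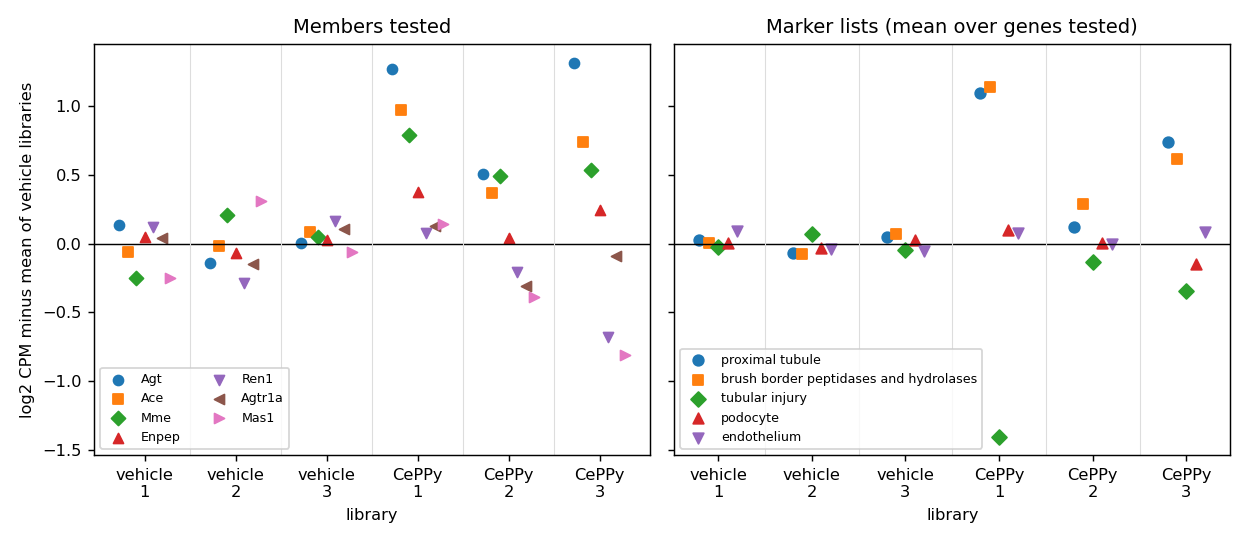
Log2 CPM of each member tested (left) and the mean over the tested genes of 5 marker lists (right), each minus its mean over the 3 vehicle libraries, for the 6 libraries. In CePPy 2 the proximal tubule list is at 0.12 and the brush border list at 0.29, with Agt at 0.50 and Mme at 0.49. Ren1 and Mas1 are lowest in CePPy 3.

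Other cell types that carry the members were checked by their markers. Podocytes carry Mme and Enpep, and 2 of 5 podocyte markers had higher and 3 lower values (median -0.014), with sums of 328 to 369 CPM in vehicle and 325 to 354 CPM in CePPy. Synpo (synaptopodin) had the lowest p of these, at a log2 fold change of -0.24 (adjusted p = 0.153 by edgeR). Endothelium carries Ace, and 5 of its 8 markers had higher and 3 lower values (median 0.04, sums of 446 to 492 CPM in vehicle and 456 to 480 CPM in CePPy). Vascular smooth muscle, pericytes and mesangium carry Agtr1a and are close kin of renin cells, and 2 of their 8 markers had higher and 6 lower values (median -0.11). The sums were 545 to 758 CPM in vehicle and 437 to 503 CPM in CePPy. Among them Acta2 and Tagln, contractile genes of smooth muscle, had log2 fold changes of -0.79 and -0.80 (adjusted p = 0.104 and 0.0739 by edgeR), and Rgs5, a pericyte gene, one of 0.35 (adjusted p = 0.293 by edgeR) and of 0.58 without vehicle 1. With a library left out, the medians ran from -0.12 to 0.02 for the podocyte list, from -0.000261 to 0.09 for endothelium and from -0.24 to 0.03 for smooth muscle, pericytes and mesangium, so each changed sign. Of the macrophage markers, 5 of 6 had lower values (sums of 191 to 230 CPM in vehicle and 170 to 218 CPM in CePPy), and of the neutrophil markers all 5 tested had (32.9 to 48.5 CPM against 9.51 to 22.2 CPM). In these lists edgeR with all libraries called 0 genes, but without the filter on low counts it called Tagln and S100a8 lower. An unadjusted edgeR p under 0.05 was reached by 1 podocyte, 1 endothelial, 3 smooth muscle and mesangial, 0 macrophage and 4 neutrophil genes. That p was reached by 19% of all genes. Of the 3, Acta2 and Tagln were lower and Itga8 was higher (log2 fold change 0.54, adjusted p = 0.217 by edgeR). DESeq2 called Acta2, Tagln and 3 neutrophil genes lower, against 481 of 15049 genes. Without CePPy 2, edgeR called Tagln and 4 neutrophil genes lower, against 344 of 15697 genes.

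Among 9618 annotated genes averaging 10 CPM or more, those whose log2 CPM ran most like each member over the 6 libraries were found by Pearson's r, as a description of libraries that share their depth and groups. Closest to Agt were Slc25a30 and Larp4b (r = 0.992 and 0.991), closest to Ace were Pyroxd2 and Tef (0.998 and 0.997) and closest to Mme were Chordc1 and Mettl27 (0.997 and 0.992). Slco2b1 and 4833439L19Rik followed Enpep (r = 0.998 for both). Ren1 ran most like Cd68 and Rnf41 (0.997 and 0.994), Agtr1a like Bcl7a and Pde9a (0.997 and 0.987) and Mas1 like Rnf7 and Mrpl30 (r = 0.984 for both). With 6 libraries an r above 0.9 was not limited to these genes. It was reached by 707 genes with Ace, 660 with Enpep, 449 with Agt and 326 with Mme. With Ren1, Mas1 and Agtr1a it was reached by 74, 79 and 89 genes.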

How the data were processed

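Messenger RNA was sequenced from 6 mouse kidney libraries; per the labels, TRIzol was used for extraction and 2 µg of total RNA entered a Yeasen library kit. The authors deposited raw counts for all libraries in 1 table, without normalization. Per the submitters' processing notes, the tools were TopHat2, Cufflinks and DESeq (no versions) and the build GRCm38; the counter, its strand setting, its treatment of reads with several matches and any filter are not stated there.

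Groups came from the titles. Genes were filtered with filterByExpr, scaled by TMM (factors 0.95 to 1.03) and compared, with treatment as the only term, by the quasi-likelihood test of edgeR 4.0.16 (R 4.3.3), adjusted by Benjamini-Hochberg over 15416 genes. The test was also run on simulated counts, with means, library sizes and dispersions taken from the fit to these data. The SE is the log2 fold change divided by the root of the F statistic. Alternatives were DESeq2 1.42.0, limma 3.58.1 (voom, with and without sample weights), other scalings, no filter, a replicate block and leaving out each library; running these on the wider lists was added after seeing the data. Positions and exon lengths came from GENCODE M21. Log2 CPM used a prior count of 2.

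All 8 members are named, up to 4 genes by lowest p from each list described, and the 2 genes most like each member with a mean of at least 1 CPM; a few further genes were named after their values were seen. Members and lists were chosen with earlier results of these data known. A gene of the wider renin-angiotensin list and a podocyte marker are not reported here and were left out of the counts for their lists.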

Additional observations from a re-analysis of the deposited data

How the results depend on the processing

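Over 14 alternatives, Agt, Ace, Mme and Enpep kept values above 0 and Ren1 and Mas1 below 0. Agtr1a ran from -0.20 without CePPy 1 to 0.020 without CePPy 2. Agt ranged from 0.93 to 1.29, Ace from 0.57 to 0.86, Mme from 0.48 to 0.71 and Ren1 from -0.46 to -0.07. The number of members passing was 3 with DESeq2 (Agt, Ace and Mme), 2 with limma-voom and sample weights (Agt and Ace) and 0 in every other alternative with all libraries. Leaving out a library gave between 0 and 2 members, the 2 being Agt and Ace without CePPy 2. Over all genes, 1 was called, against 63 without the filter on low counts, 993 with DESeq2, 352 with limma-voom and sample weights and between 0 and 811 with a library left out: dropping CePPy 2 gave 811, dropping vehicle 2 gave 6, dropping CePPy 1 gave 2, and each of the other 3 gave 0. The cause was not tested. The titles number replicates alike in both groups, and the labels do not say what the numbers mark. Deviations of same-numbered libraries from their group means had correlations across genes of -0.15, 0.10 and -0.02. With 3 libraries per group these values cannot decide whether the numbers pair the libraries. With a replicate block edgeR called 0 genes and 0 members. Depth limits Agtr1b, with at most 6 counts in a library; Mas1 had at most 54.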
